A study of Mus musculus with 10 samples.

Results

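Subcutaneous 4T1 tumours were compared by the form in which the drug MK1775 was given, with 4 libraries of the Lipo form against 4 of the free form, 8 of the 10 libraries in all. The sides were taken from the group labels, and no measured value entered the choice. 4T1 is a mouse mammary carcinoma line, and tumours were taken on day 14. The Lipo side held 2 libraries of Lipo-MK1775 and 2 of Lipo-MK1775+NLG, the free side 2 of Free-MK1775 and 2 of Free-MK1775+NLG919, so each side carried the second drug in 2 of its 4 libraries. The remaining 2 libraries, the negative control, came from mice given PBS according to the series' design text, which also names NLG919 for the group labelled NLG. The comparison asks how the form of the drug altered expression, averaged over the presence of NLG919. The make-up of the Lipo and free forms and the doses are not stated in the labels. Nor do the labels say that a group's 2 libraries are from different mice, so a p-value here reflects only how much these samples vary.

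MK1775 inhibits WEE1, the kinase that holds CDK1 inactive until a cell is ready to divide, and loss of that brake sends cells with damaged or incompletely copied DNA into mitosis. NLG919 blocks the pathway of IDO1, an enzyme that starts the breakdown of tryptophan to kynurenine, and kynurenine dampens T cells through the receptor AhR. The title of the series concerns ferroptosis, a form of cell death in which iron drives the oxidation of membrane lipids and which the enzyme GPX4 holds back. A tumour of this kind is a mixture of carcinoma cells, macrophages, neutrophils, fibroblasts, vessels and blood, and in such bulk samples fewer cells of a type and less RNA per cell cannot be told apart.

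Values are FPKM, a fragment count scaled for transcript length and for the total of the library, summed per gene, with mitochondrial genes removed and the nuclear genes of each library rescaled to a common sum. There were 3 libraries that stood apart. Mitochondrial genes held 64.1% and 56.0% of summed FPKM in the Lipo-MK1775 libraries 1 and 2 and 47.3% in Free-MK1775+NLG919 library 2, against 2.88% to 4.82% in the other 7. These 3 libraries had 9703 to 10022 genes at 1 rescaled FPKM or more, the others 11017 to 11549. The share averaged 31.7 ± 33.0% on the Lipo side and 14.6 ± 21.8% on the free side (SD, n = 4 each), a difference of 17.0 percentage points with a two-sided exact permutation p of 0.314, where 0.0286 is the smallest p this design allows. Both Lipo-MK1775 libraries belong to the 3, so the effects of Lipo-MK1775 and of a high mitochondrial share cannot be told apart. The keratins Krt8 and Krt18, markers of the carcinoma cells, were present in every library, at 94.1 to 233 and 213 to 339 rescaled FPKM, while the epithelial marker Epcam was between 0 and 3.83. Wherever a result is given for 5 libraries, these are the 2 Lipo-MK1775+NLG libraries against both Free-MK1775 libraries and Free-MK1775+NLG919 library 1, all of low mitochondrial share. Both Lipo libraries there carried NLG919, while of the free libraries only Free-MK1775+NLG919 library 1 did. A change in the 5 libraries therefore mixes form with NLG919 and is not a change of form alone. In these 5 libraries limma called 1 gene higher (0.00817%) and 0 lower (0%). Both Lipo libraries lay above all 3 free libraries for 1531 genes (12.5%) and below them for 788 (6.43%). So few libraries separate often under random labels, so these shares are not read as a difference, nor set beside those of all 8 libraries.

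Few genes told the forms apart. A linear model of log2(rescaled FPKM + 1) with a mean per group was fitted with limma to 12247 genes, and calls were made at a p adjusted by Benjamini and Hochberg under 0.05. It called 1 gene higher in the Lipo libraries, 0.00817% of the genes tested, and 0 lower (0%). Without adjustment, at p under 0.05, limma had 215 genes higher (1.76%) and 599 lower (4.89%). By the simpler criterion of no overlap, 174 genes separated all 8 libraries (1.42%): in 68 (0.555%) all 4 Lipo libraries were above all 4 free libraries, and in 106 (0.866%) they were all below. If the 8 libraries were labelled at random, a gene would separate them fully with a probability of 0.0286, so the 174 are no excess. Most of the gaps were narrow: the nearest Lipo and free libraries lay a median of 0.055 log2 units apart for the higher genes and 0.066 for the lower, and both group means were under 5 FPKM for 83 of the 174. The count of calls depended on the Free-MK1775+NLG919 pair, which differed most between replicates (SD 0.56 log2 units, against 0.33 to 0.39 in the other groups). Without either library that group has 1 library left, and its spread no longer enters the shared estimate. Calls rose in both cases, also in the comparison without NLG919, which does not use this pair. Such fits are therefore given for single genes as sizes of change only. Among the 174 genes the change was at least 1 log2 unit for 18 of the higher and 14 of the lower. The 2 negative control libraries stood with the Lipo side for 53 of the 174 genes, with the free side for 63 and were split for 58.

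The difference between forms had opposite signs without and with NLG919 for most genes. Lipo-MK1775 was lower than Free-MK1775 for most genes, with a median over all genes of -0.57 log2 units, and limma called 59 genes higher (0.482%) and 301 lower (2.46%), with 3.28% higher and 35.1% lower at an unadjusted p under 0.05. These counts moved widely: limma called 3 genes higher and 0 lower from the 8 libraries alone, 10 higher and 1 lower with the mitochondrial share as a covariate, 60 higher and 52 lower under median-of-ratios scaling, and 1 to 5764 genes with a library left out. Lipo-MK1775+NLG was higher than Free-MK1775+NLG919 for most genes, with a median of 0.37, and limma called 1 gene in each direction (0.00817% each), with 12.5% higher and 1.74% lower at an unadjusted p under 0.05. The test of the difference between these changes, the interaction of form and NLG919, called 2563 genes higher (20.9%) and 206 lower (1.68%), with a median of 0.93 and with 44.4% and 3.73% of genes at an unadjusted p under 0.05. Only 2439 genes, 19.9% of those tested, had the same sign in both, and across genes the changes were related at Pearson r = -0.44 and Spearman rho = -0.47, where genes are not independent replicates. The libraries of high mitochondrial share sat on the Lipo side without NLG919 and on the free side with it. With a mean per group, the slope of the mitochondrial share as a covariate comes from differences within groups. The share differed most within the Free-MK1775+NLG919 pair (2.88% against 47.3%), so that slope rests mostly on this pair. Calls lost with the covariate therefore decide nothing. The interaction called 0 genes with the mitochondrial share as a covariate, 6 from the 8 libraries alone and 0 to 7684 with a library left out. Under median-of-ratios scaling it called 36 genes, 17 higher and 19 lower, and the medians without and with NLG919 were -0.03 and 0.01.

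**Figure D1:**
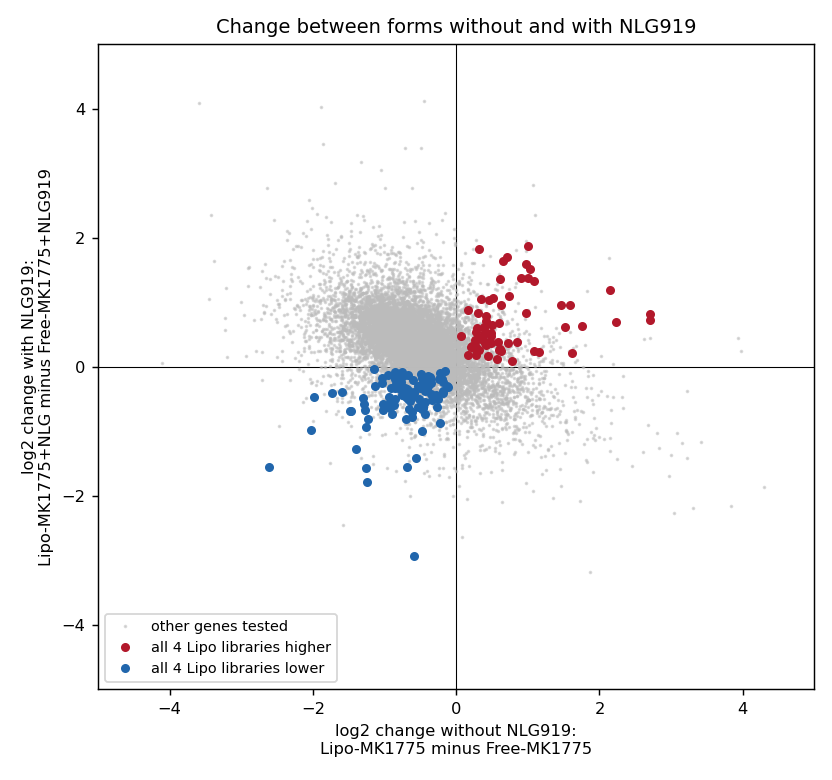
Each point is a gene, with the log2 change without NLG919 (Lipo-MK1775 minus Free-MK1775) on the horizontal axis and with NLG919 (Lipo-MK1775+NLG minus Free-MK1775+NLG919) on the vertical axis; red points are the 68 genes higher in all 4 Lipo libraries, blue points the 106 lower, and 9 genes lie outside the axes at 5 log2 units. The grey cloud runs from upper left to lower right, while the genes that separate the 8 libraries lie in the other corners by construction.

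The beta globin messages Hbb-bs and Hbb-bt were lower in the Lipo tumours, whether or not NLG919 was given. Hbb-bs, the major adult beta globin of the red cell lineage, had 20.2 and 17.0 rescaled FPKM in Lipo-MK1775 and 24.2 and 40.1 in Lipo-MK1775+NLG, against 117 and 118 in Free-MK1775 and 51.7 and 169 in Free-MK1775+NLG919, while the negative control had 27.2 and 33.5. Every Lipo library lay below every free library, and the control libraries lay among the Lipo values. The mean was 25.4 ± 10.3 on the Lipo side and 114 ± 48.2 on the free side (SD, n = 4 each), a log2 change of -2.08 (SE 0.34, limma adjusted p = 0.259 over all genes), with -2.61 without NLG919, -1.56 with it and -1.49 in the 5 libraries of low mitochondrial share. The Hbb-bs change was -2.50 without Free-MK1775+NLG919 library 1 and -1.66 without library 2. Hbb-bt, its neighbour and near copy, had 2.83 and 0.864 in Lipo-MK1775 and 2.31 and 2.84 in Lipo-MK1775+NLG, against 4.70 and 6.54 in Free-MK1775 and 3.02 and 5.14 in Free-MK1775+NLG919. It too separated all 8 libraries, with a log2 change of -0.89 (SE 0.29, limma adjusted p = 0.635), and reads may be split between the copies.

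The stretches of 250 bases before the start sites of both globin genes are shown because these genes were low together in the same libraries. They come from RefSeq on build GRCm38.p6, minus strand, at chr7:103827929-103828178 for Hbb-bs and chr7:103813924-103814173 for Hbb-bt; on GRCm39, the build of the measurements, the genes lie on chromosome 7 at 103475741 to 103477303 and 103461731 to 103463203. Capitals mark matches on either strand to short words of the kind found in adult globin promoters. CACCC is the form bound by Krüppel-like factors, whereas the CCAAT box is found in many promoters. ATATAA is a form of the TATA box, and the last, GATAAG, is a form bound by erythroid GATA factors.
Hbb-bs: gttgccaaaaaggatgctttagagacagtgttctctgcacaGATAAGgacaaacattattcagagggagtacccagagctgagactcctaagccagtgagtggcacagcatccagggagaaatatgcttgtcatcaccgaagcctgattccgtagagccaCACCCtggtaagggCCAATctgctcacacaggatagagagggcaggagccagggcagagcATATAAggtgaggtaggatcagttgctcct
Hbb-bt: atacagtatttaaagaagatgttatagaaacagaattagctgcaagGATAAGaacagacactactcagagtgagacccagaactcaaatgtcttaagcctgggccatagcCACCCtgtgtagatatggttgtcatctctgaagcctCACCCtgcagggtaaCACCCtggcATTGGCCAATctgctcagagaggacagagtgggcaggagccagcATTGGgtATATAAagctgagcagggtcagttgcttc
Both hold all 4 words, at nearly the same distance from the start: CACCC at -90 and -89, CCAAT at -76 and -75, ATATAA at -30 and -29, and GATAAG at -209 and -204. Hbb-bt has further CACCC matches at -140 and -104 and CCAAT matches on the other strand at -80 and -36, and no matches overlap one another. The 2 stretches are identical at 178 aligned positions, 69.3% of the alignment. Of 32851 mouse promoter windows of the same length, 52% hold CACCC, 33.8% CCAAT, 9.1% ATATAA and 6.55% GATAAG, so these matches describe the sequences and no more.

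The erythroid list, with globins and enzymes of haem synthesis, had 6 measured members, of which 5 were lower and 1 higher in the Lipo libraries, and 2 separated the 8 libraries downwards against a background of 0.866%. Its median was -0.92 against -0.10 over all genes, with -1.003 without NLG919, -0.99 with it and -0.99 in the 5 libraries of low mitochondrial share. limma called 0 of the 6, and 4 had an unadjusted p under 0.05. Hba-a1, an alpha globin chosen after its values were seen, had 28.9 and 16.5 in Lipo-MK1775 and 11.2 and 19.4 in Lipo-MK1775+NLG, against 54.0 and 46.5 in Free-MK1775 and 27.4 and 69.8 in Free-MK1775+NLG919. Its groups overlapped by a small margin, between 28.9 in Lipo-MK1775 library 1 and 27.4 in Free-MK1775+NLG919 library 1. Hba-a2, the other alpha globin gene, was likewise chosen after its values were seen and had 23.7 and 12.2 in Lipo-MK1775 and 3.59 and 11.9 in Lipo-MK1775+NLG, against 44.7 and 4.83 in Free-MK1775 and 21.2 and 44.7 in Free-MK1775+NLG919. With named transcripts its groups overlapped widely, with changes of -0.95 (SE 0.64, limma adjusted p = 0.868) on average, 0.15 without NLG919 and -2.05 with it. With transcripts assembled without a symbol added, 16.0% of the FPKM of the locus, the Hba-a2 change was -1.35 (SE 0.30, limma adjusted p = 0.354). It then ran from 7.27 to 22.1 on the Lipo side and from 22.6 to 41.7 on the free side, a narrow separation. Car2, a carbonic anhydrase that many other cells also make and that was likewise chosen after its values were seen, was the member with a positive change, 0.46. The summed level of the list was 77.2 and 49.0 in Lipo-MK1775 and 43.6 and 78.0 in Lipo-MK1775+NLG, 223 and 179 in Free-MK1775 and 105 and 291 in Free-MK1775+NLG919, and 48.4 and 67.8 in the negative control.

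Chemokines, the secreted proteins that draw leukocytes into tissue, were mostly higher in the Lipo tumours. Of 20 measured members of the chemokine list, which includes the granulocyte growth factor Csf3, 17 were higher and 3 lower, with a median of 0.36 against -0.10 over all genes. The median was 0.45 without NLG919, 0.47 with it and 0.36 in the 5 libraries of low mitochondrial share, where the median over all genes was 0.05. limma called 0 of the 20 and 6 had an unadjusted p under 0.05. The summed level was 1201 and 1041 in Lipo-MK1775 and 731 and 941 in Lipo-MK1775+NLG, 653 and 630 in Free-MK1775 and 621 and 557 in Free-MK1775+NLG919, and 553 and 810 in the negative control, so the Lipo and free sums did not overlap. That rests on Ccl8: the sum of the other 19 genes, computed after the values were seen, was 598 and 529.6 in Lipo-MK1775 and 633 and 769 in Lipo-MK1775+NLG, against 533 and 496 in Free-MK1775 and 545 and 537 in Free-MK1775+NLG919, which overlap. With transcripts assembled without a gene symbol added, the sums of all 20 ran from 750 to 1154 on the Lipo side and from 534 to 684 on the free side.

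The member with the largest change was Ccl8, an attractant of monocytes and T cells chosen here after its values were seen. It had 603 and 511 rescaled FPKM in Lipo-MK1775 and 97.7 and 172 in Lipo-MK1775+NLG, against 119 and 134 in Free-MK1775 and 76.3 and 20.4 in Free-MK1775+NLG919. Ccl8 was far above the rest in the 2 Lipo-MK1775 libraries, the groups overlapped, and its log2 change was 1.90 (SE 0.38, limma adjusted p = 0.335) but 0.28 in the 5 libraries of low mitochondrial share. Ccl22, a ligand of CCR4 made by dendritic cells and macrophages, and Cxcl3, a neutrophil attractant, were also chosen after their values were seen. Ccl22 had 6.49 and 4.63 in Lipo-MK1775 and 3.65 and 10.5 in Lipo-MK1775+NLG, against 2.53 and 3.90 in Free-MK1775 and 4.24 and 2.17 in Free-MK1775+NLG919, a change of 0.74. Cxcl3 had 1.18 and 4.32 in Lipo-MK1775 and 7.43 and 4.93 in Lipo-MK1775+NLG, against 0.785 and 1.97 in Free-MK1775 and 1.72 and 2.14 in Free-MK1775+NLG919, a change of 0.92. In both genes a single Lipo library lay inside the free range.

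Cxcl5, a neutrophil attractant acting on CXCR2, was the chemokine that separated all 8 libraries. Its named transcript had 4.52 and 11.8 in Lipo-MK1775 and 1.94 and 1.18 in Lipo-MK1775+NLG, against 0.199 and 0.390 in Free-MK1775 and 0.600 and 0.287 in Free-MK1775+NLG919, and 0.986 and 0.773 in the negative control. The log2 change was 1.76 (SE 0.28, limma adjusted p = 0.259), and 1.68 without Free-MK1775+NLG919 library 2. The named transcript passed the filter only through the Lipo libraries, where it was higher, so its separation and p are no support. However, 94.4% of the deposited FPKM at this locus belongs to assembled transcripts without a symbol. With these added, Cxcl5 had 4.21 and 18.3 in Lipo-MK1775 and 52.1 and 75.5 in Lipo-MK1775+NLG, against 17.9 and 33.5 in Free-MK1775 and 19.5 and 11.6 in Free-MK1775+NLG919. The groups then overlapped fully, with a change of 0.32 (SE 0.39), so the separation belongs to the named transcript and not to the whole locus.

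The same transcript question ran through the separating genes with large changes. By the rule for named genes, the 12 with the largest change in each direction were taken, and these 24 genes are described next because they separate the libraries, so their changes are not evidence of their own. With the assembled transcripts added, 22 of the 24 kept their sign, 7 still separated the 8 libraries and 5 still differed by at least 1 log2 unit. These transcripts held a median of 46.6% of the FPKM of the 24 loci (range 0 to 94.4%) and more than 50% of it in 10. Of all 174 separating genes 172 could be tested both ways; 165 kept their sign, and the median size of the change was 0.54 log2 units with named transcripts only and 0.39 with the others added.

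**Figure D2:**
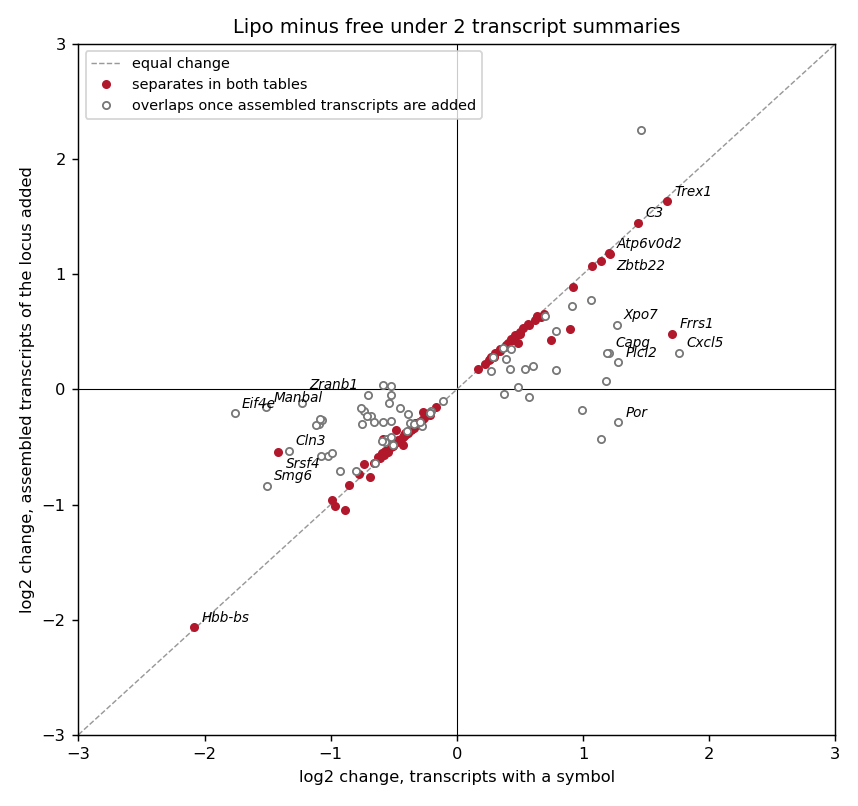
The log2 change between Lipo and free libraries is plotted for 172 separating genes, with named transcripts only on the horizontal axis and with the assembled transcripts of the locus added on the vertical axis; filled points still separate all 8 libraries, open points overlap, and 2 genes outside the axes at 3 log2 units (Rps18-ps6 and Rps18-ps4) are not shown. Hbb-bs, C3, Trex1, Zbtb22 and Atp6v0d2 lie close to the line of equal change, whereas Cxcl5, Por and Eif4e lie near 0 or beyond it.

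Among the 12 higher genes, those whose separation held in both summaries were Frrs1, Trex1, C3, Zbtb22 and Atp6v0d2. C3, the central component of complement, had 72.0 and 62.8 rescaled FPKM in Lipo-MK1775 and 45.5 and 46.2 in Lipo-MK1775+NLG, against 26.1 and 41.7 in Free-MK1775 and 17.3 and 7.94 in Free-MK1775+NLG919, with 41.4 and 74.8 in the negative control. The mean was 56.6 ± 13.0 on the Lipo side and 23.3 ± 14.3 on the free side (SD, n = 4 each), a log2 change of 1.44 (SE 0.28, limma adjusted p = 0.303) that was 1.45 with assembled transcripts. The lowest C3 value was in Free-MK1775+NLG919 library 2 and the change in the 5 libraries of low mitochondrial share was 0.76. Without that library the change of C3 was 1.18.

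Trex1, an exonuclease that clears DNA from the cytosol, had 6.84 and 10.9 in Lipo-MK1775 and 2.17 and 6.25 in Lipo-MK1775+NLG, against 1.61 and 0.835 in Free-MK1775 and 1.18 and 1.02 in Free-MK1775+NLG919. The negative control, at 10.2 and 4.04, stood with the Lipo libraries, and the log2 change was 1.67 (SE 0.35, limma adjusted p = 0.361). Trex1, C3 and Zbtb22 each share an assembled locus with another symbol, so how reads were divided there is uncertain. The same holds for Hbb-bs, Hba-a1 and Hba-a2 above and for Srsf4, Meg3 and Pram1 below, among others. Atp6v0d2, a subunit of the proton pump found in macrophages and osteoclasts, had 4.52 and 3.83 in Lipo-MK1775 and 4.40 and 2.91 in Lipo-MK1775+NLG, against 1.18 and 1.69 in Free-MK1775 and 0.723 and 0.943 in Free-MK1775+NLG919. It had the smallest SE of the 12, with a log2 change of 1.21 (SE 0.21, limma adjusted p = 0.262), 1.09 without NLG919 and 1.33 with it. The change was 1.09 in the 5 libraries of low mitochondrial share, 1.18 with assembled transcripts and 1.25 without Free-MK1775+NLG919 library 2. Frrs1, a ferric reductase, had 5.99 and 5.28 in Lipo-MK1775 and 0.214 and 1.27 in Lipo-MK1775+NLG, against 0.0202 and 0.0177 in Free-MK1775 and 0.00676 and 0.0145 in Free-MK1775+NLG919. Its change of 1.71 with named transcripts became 0.48 with the assembled ones, when the Lipo libraries ran from 4.78 to 6.27 and the free libraries from 3.20 to 3.69.

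The zinc finger gene Zbtb22 had 4.61 and 1.49 in Lipo-MK1775 and 2.45 and 6.16 in Lipo-MK1775+NLG, against 1.16 and 1.40 in Free-MK1775 and 1.32 and 0 in Free-MK1775+NLG919, so the nearest libraries of the groups were 0.053 log2 units apart. The other 7 of the 12 overlapped once the assembled transcripts were added. They were Cxcl5, described above; Por, the reductase that feeds electrons to cytochromes P450 and is a known driver of ferroptosis; Plcl2, a phospholipase C homologue without catalytic activity; Xpo7, a nuclear transport receptor; Capg, an actin capping protein of macrophages; Utp11, a factor of ribosome assembly; and Kmt2d, a histone H3 methyltransferase. Their log2 changes with named transcripts ran from 1.14 in Kmt2d to 1.76 in Cxcl5. Por had 22.4 and 19.0 in Lipo-MK1775 and 34.3 and 14.6 in Lipo-MK1775+NLG, against 10.4 and 9.63 in Free-MK1775 and 9.98 and 4.58 in Free-MK1775+NLG919, a change of 1.28 (SE 0.30, limma adjusted p = 0.419). With the assembled transcripts, which held 58.8% of the FPKM of the locus, Por ran from 17.7 to 40.3 on the Lipo side and from 31.1 to 37.0 on the free side, with a change of -0.29. Kmt2d likewise turned, to -0.43, while Plcl2, Xpo7, Capg and Utp11 stayed positive at 0.24, 0.56, 0.32 and 0.08. Without Free-MK1775+NLG919 library 2 the changes of the named transcripts were 1.23 in Plcl2 and 1.55 in Capg.

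**Figure D3:**
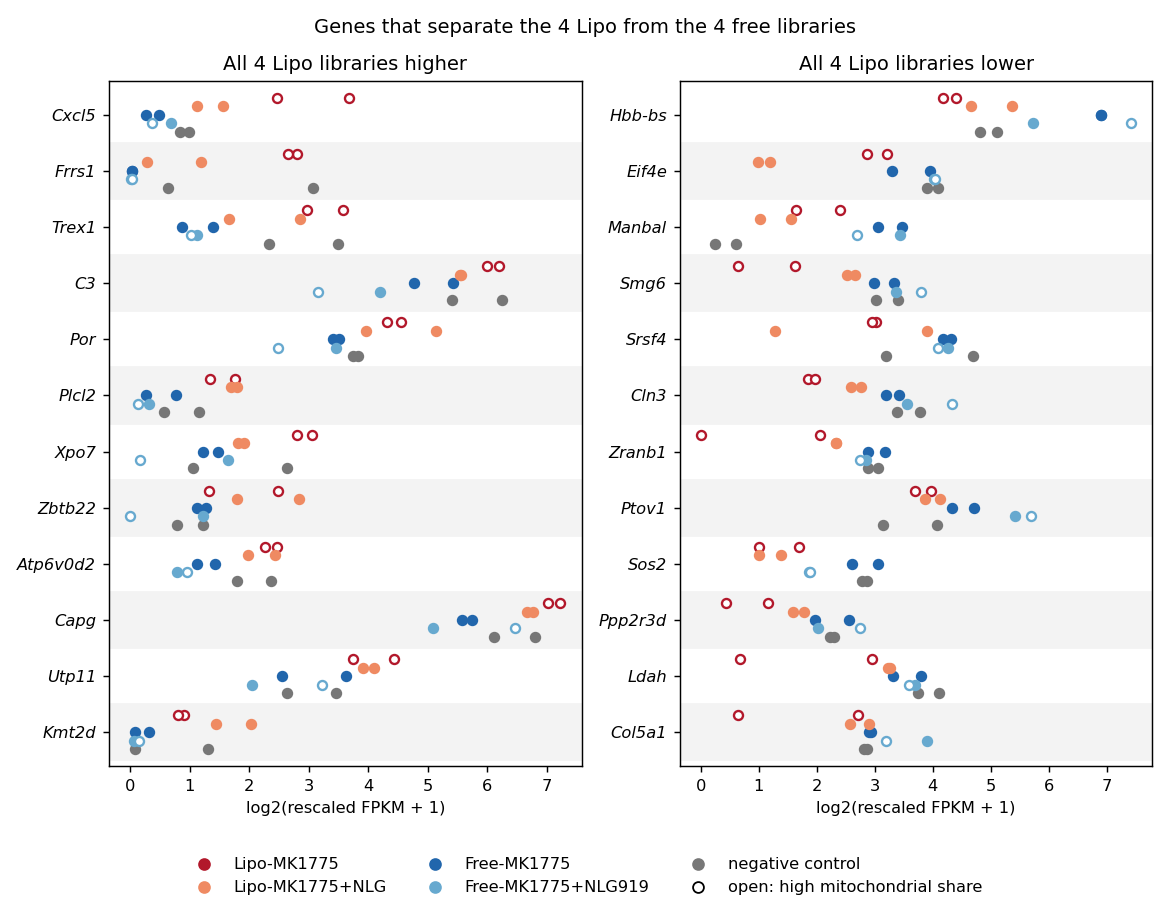
Levels in each library, as log2(rescaled FPKM + 1) of named transcripts, of the 12 genes with the largest positive and the 12 with the largest negative change among those that separate the 8 libraries; colours give the groups and open symbols the 3 libraries of high mitochondrial share. In every row the 4 Lipo points lie to one side of the 4 free points, by a wide margin in Hbb-bs and Atp6v0d2 and by almost none in Col5a1 and Ldah.

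Of the 12 lower genes, Hbb-bs and Srsf4 separated the libraries in both summaries. Srsf4, a splicing factor of the SR family, had 7.07 and 6.77 in Lipo-MK1775 and 14.0 and 1.44 in Lipo-MK1775+NLG, against 18.8 and 17.0 in Free-MK1775 and 18.1 and 16.1 in Free-MK1775+NLG919, with 8.12 and 25.0 in the negative control. Its free libraries were close together and its Lipo libraries were not, with a log2 change of -1.42 (SE 0.53, limma adjusted p = 0.714) that was -0.55 with assembled transcripts. Eif4e, the protein that binds the cap of messages for translation, had the smallest p of the named genes after Rps18-ps6. It had 8.30 and 6.29 in Lipo-MK1775 and 1.297 and 0.980 in Lipo-MK1775+NLG, against 8.84 and 14.5 in Free-MK1775 and 15.2 and 15.4 in Free-MK1775+NLG919, a log2 change of -1.76 (SE 0.20, limma adjusted p = 0.0698). Lipo-MK1775+NLG was the group that stood out, at -2.93 against Free-MK1775+NLG919, where limma called it lower (adjusted p = 0.0184), a call lost from the 8 libraries alone and with the mitochondrial share as a covariate. The average Eif4e change was -1.76 without Free-MK1775+NLG919 library 1 and -1.75 without library 2. With the assembled transcripts, 44.9% of the FPKM of the locus, Eif4e ran from 13.5 to 16.9 on the Lipo side and from 14.6 to 24.5 on the free side, a change of -0.21.

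The remaining 9 had changes between -1.51 and -1.02 with named transcripts, and between -0.84 and -0.12 with the assembled ones, when all 9 overlapped. Smg6 cuts messages in nonsense-mediated decay, Cln3 is a protein of the lysosome membrane, Zranb1 removes ubiquitin chains, Sos2 activates Ras, Ppp2r3d is a subunit of a phosphatase, Ldah is a hydrolase of lipid droplets and Col5a1 is a fibrillar collagen; Manbal and Ptov1 complete the set. Cln3 had 2.62 and 2.91 in Lipo-MK1775 and 5.78 and 5.01 in Lipo-MK1775+NLG, against 9.71 and 8.13 in Free-MK1775 and 10.8 and 19.1 in Free-MK1775+NLG919, a change of -1.33 (SE 0.21, limma adjusted p = 0.259). Its gap of 0.43 log2 units was the widest of the 12. The Cln3 change was -1.53 without Free-MK1775+NLG919 library 1 and -1.14 without library 2. Without library 2 the changes of Manbal, Smg6 and Sos2 were -1.70, -1.40 and -1.08. At the other end, Col5a1 was at 6.45 both in the highest Lipo library and in the lowest free library, a gap of 0.001, and its change of -1.02 rests on 0.565 in Lipo-MK1775 library 1 against 4.97 to 6.45 in the other Lipo libraries, being -0.50 without that library.

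Of the 12247 genes tested, 38, 20 higher and 18 lower, separated the 8 libraries in all of 4 summaries: named transcripts, a single length per gene, assembled transcripts added, and median-of-ratios scaling. The 38 come from the 174 separating genes and the 4 summaries rest on the same FPKM, so this agreement is partly built in. Of the 38, Mvd and Meg3 are members of lists, and the other genes not yet named were chosen after their values were seen. Gas6, the ligand of the TAM receptors by which macrophages take up dying cells, had 10.4 and 16.2 in Lipo-MK1775 and 13.2 and 14.1 in Lipo-MK1775+NLG, against 9.68 and 9.37 in Free-MK1775 and 9.57 and 6.55 in Free-MK1775+NLG919, a change of 0.56. Mthfd2, a mitochondrial enzyme of folate metabolism, had 17.96 and 16.5 in Lipo-MK1775 and 16.6 and 19.9 in Lipo-MK1775+NLG, against 14.6 and 15.9 in Free-MK1775 and 12.8 and 6.85 in Free-MK1775+NLG919, a change of 0.53. In both genes the lowest value was in Free-MK1775+NLG919 library 2.

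Epas1, which encodes the hypoxia factor HIF-2 alpha, had 3.01 and 4.33 in Lipo-MK1775 and 3.45 and 3.22 in Lipo-MK1775+NLG, against 2.63 and 2.91 in Free-MK1775 and 1.96 and 1.78 in Free-MK1775+NLG919, a change of 0.45. Others on the higher side were Mvd of cholesterol synthesis (0.50), the metallothionein Mt3 (0.92), the decoy receptor Il13ra2 (0.69), Chp2 (0.66), Pgap6 (0.90) and Papss2 of sulphate activation (0.39). On the lower side, the actin-binding tropomyosin Tpm1 had 62.9 and 84.3 in Lipo-MK1775 and 134 and 117 in Lipo-MK1775+NLG, against 135 and 149 in Free-MK1775 and 138 and 138 in Free-MK1775+NLG919, a change of -0.54. Its free libraries were within 14 FPKM of one another, and the Lipo-MK1775 libraries were the low ones. The imprinted noncoding RNA Meg3 had 0.0465 and 0.0184 in Lipo-MK1775 and 0.185 and 0.158 in Lipo-MK1775+NLG, against 0.529 and 0.623 in Free-MK1775 and 1.304 and 0.742 in Free-MK1775+NLG919, a change of -0.69. Pram1 (-0.78), Myct1 (-0.59), Ucn2 (-0.58), Sertad4 (-0.52), Cadm4 (-0.51), Tspan6 (-0.50) and Cnih4 (-0.47) were also lower. None of these was called by limma on average with all libraries. Without NLG919, limma called Tpm1 (-0.95, adjusted p = 0.0480), Il13ra2 (1.15, adjusted p = 0.0460) and Chp2 (1.09, adjusted p = 0.0440), and it called none of these 3 from the 8 libraries alone. Il13ra2 (1.45 and 1.34 FPKM) and Chp2 (1.22 and 1.48) passed the filter only through Lipo-MK1775, where they were then called higher. Their calls are therefore no support, and every other library was under 1 FPKM. Tspan6 and Myct1 passed the filter only through free libraries, where they were higher, so their separation is no support either. The gap of Il13ra2 between the sides was 0.004 log2 units. The average Meg3 change was -0.79 without Free-MK1775+NLG919 library 2.

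The gene that limma called was Rps18-ps6, a pseudogene of the ribosomal protein gene Rps18, and its values belong with those of Rps18-ps4, chosen after its values were seen, which overlaps it on the other strand of chromosome 13. Rps18-ps6 (97896580 to 97897140 on GRCm39, minus strand) had 679 and 729 in Lipo-MK1775 and 281 and 530 in Lipo-MK1775+NLG, was listed at 0 in all 4 free libraries and had 538 and 491 in the negative control. limma gave a log2 change of 9.03 (SE 0.20, adjusted p = 1.13e-07); with the free libraries listed at 0, no fold is given. Rps18-ps4 (97887620 to 97897473, plus strand) was listed at 0 in 3 Lipo libraries and had 145 in Lipo-MK1775+NLG library 1, against 283 and 293 in Free-MK1775 and 218 and 437 in Free-MK1775+NLG919, and it was listed at 0 in the negative control. A library listed at 0 for one of the pair had a high value for the other, and the strand setting of the counting is not stated, so reads of this locus cannot be told apart between the 2 symbols. The parent gene Rps18, also chosen after its values were seen, had 216 to 444 on the Lipo side and 203 to 418 on the free side.

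The genes of the drug targets did not separate the forms. Of 28 genes followed for the WEE1, ferroptosis and IDO1 pathways and for immune and tumour cells, 24 were measured above the filter, and limma called 0 of them on average, with 3 (Tfrc, Nfe2l2 and Chac1) at an unadjusted p under 0.05. Wee1 itself had 3.95 and 3.84 in Lipo-MK1775 and 7.40 and 6.31 in Lipo-MK1775+NLG, against 7.08 and 9.08 in Free-MK1775 and 5.14 and 2.61 in Free-MK1775+NLG919, with 9.17 and 9.87 in the negative control. The average change was -0.07 (SE 0.21), made of -0.88 without NLG919 and 0.74 with it, and the interaction was called by limma (1.62, adjusted p = 0.0406). That call was lost from the 8 libraries alone (1.62, limma adjusted p = 0.0701) and under median-of-ratios scaling (0.65, limma adjusted p = 0.125). With the mitochondrial share as a covariate, whose slope rests mostly on the Free-MK1775+NLG919 pair, the call was lost too (0.31, limma adjusted p = 0.915). The Wee1 call was also lost without any single library other than those of Free-MK1775+NLG919. Both Lipo-MK1775 libraries and Free-MK1775+NLG919 library 2, those of high mitochondrial share, were the low ones, and in the other 5 the change was -0.02. Pkmyt1, the kinase that shares the CDK1 brake with WEE1, and cyclin B1 (Ccnb1) followed the same order, with average changes of -0.16 and -0.03 and called interactions of 1.80 and 2.10 (limma adjusted p = 0.0418 and 0.0472). Both calls were lost with the covariate (0.03 and -0.01, adjusted p = 0.992 and 0.997), from the 8 libraries alone (adjusted p = 0.0717 and 0.0745) and under median-of-ratios scaling. Cdk1 and Cdc25c, the phosphatase that releases CDK1, differed by -0.07 and -0.06 on average.

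The WEE1 and CDK1 list had 14 measured members, 3 higher and 11 lower, with a median of -0.05, of -0.74 without NLG919, 0.66 with it and 0.00 in the 5 libraries of low mitochondrial share. limma called 0 of the 14 on average, with 0 at an unadjusted p under 0.05. In the interaction it called 5 of the 14, where it called 20.9% of all genes tested higher and 1.68% lower. With so few members the 5 are not read as particular to this list. Genes of mitosis (median -0.09, 24 members), DNA replication (-0.03, 24), DNA damage and repair (-0.01, 19) and p53 targets (0.02, 17) stood near the median over all genes of -0.10. The p53 target Cdkn1a, a CDK inhibitor, had 17.4 and 21.5 in Lipo-MK1775 and 20.7 and 25.1 in Lipo-MK1775+NLG, against 19.6 and 24.5 in Free-MK1775 and 20.6 and 14.1 in Free-MK1775+NLG919, a change of 0.12 (SE 0.18).

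Genes of ferroptosis defence and of its drivers were each divided. Gpx4, the lipid peroxidase that blocks ferroptosis, had 176 and 198 in Lipo-MK1775 and 217 and 214 in Lipo-MK1775+NLG, against 245 and 245 in Free-MK1775 and 185 and 248 in Free-MK1775+NLG919, a change of -0.19 (SE 0.14). Only Free-MK1775+NLG919 library 1, at 185, kept the groups from separating. Of 19 measured defence genes 8 were higher and 11 lower (median -0.03), and of 19 drivers 9 were higher and 10 lower (median -0.06). limma called 0 of either list, with 1 and 3 at an unadjusted p under 0.05. Nfe2l2, the master regulator of antioxidant genes, had 24.4 and 17.5 in Lipo-MK1775 and 49.4 and 46.1 in Lipo-MK1775+NLG, against 49.1 and 49.96 in Free-MK1775 and 48.3 and 31.9 in Free-MK1775+NLG919, a change of -0.47 (SE 0.18) that was -0.04 in the 5 libraries of low mitochondrial share. Without Free-MK1775+NLG919 library 2 the Nfe2l2 change was -0.62. Chac1, which breaks down glutathione, had 7.43 and 9.07 in Lipo-MK1775 and 14.1 and 11.9 in Lipo-MK1775+NLG, against 8.77 and 11.98 in Free-MK1775 and 4.69 and 3.52 in Free-MK1775+NLG919, a change of 0.59 (SE 0.18) on average and 0.64 in those 5. Both Chac1 and Nfe2l2 had a called interaction (1.75 and 1.49, limma adjusted p = 0.0371 and 0.0402), lost with the mitochondrial share as a covariate (1.08 and 0.65, adjusted p = 0.644 and 0.813), from the 8 libraries alone (adjusted p = 0.0701 for both) and under median-of-ratios scaling (0.71 and 0.36).

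Acsl4, which loads membranes with oxidisable lipids, differed by -0.61 (SE 0.37), and its lowest values, 6.77, 9.08 and 7.24, were again in the 3 libraries of high mitochondrial share. The Acsl4 change was -1.10 without Free-MK1775+NLG919 library 2 and -0.47 in the 5 libraries of low mitochondrial share. Iron handling was mixed: the transferrin receptor Tfrc had 18.5 and 15.1 in Lipo-MK1775 and 19.1 and 22.7 in Lipo-MK1775+NLG, against 18.03 and 30.4 in Free-MK1775 and 7.69 and 4.26 in Free-MK1775+NLG919, a change of 0.61 (SE 0.23). Both Free-MK1775+NLG919 libraries were the low ones, and the interaction of 2.16 was called (limma adjusted p = 0.0377). This call too was lost with the covariate (0.97, adjusted p = 0.794), from the 8 libraries alone (adjusted p = 0.0701) and under median-of-ratios scaling (1.07). The ferritin chains Fth1 and Ftl1 differed by -0.06 and 0.19 (SE 0.14 and 0.12), Hmox1, which frees iron from haem, by -0.41 (SE 0.20), Aifm2, a second guard against lipid peroxidation, by 0.15 (SE 0.22) and Ptgs2, a gene often induced in ferroptosis, by 0.21 (SE 0.24). The ferroxidase Cp was the iron gene with the smallest p, with 34.2 and 26.1 in Lipo-MK1775 and 73.1 and 104 in Lipo-MK1775+NLG, against 89.7 and 88.3 in Free-MK1775 and 115 and 100.7 in Free-MK1775+NLG919. Its change was -0.92 (SE 0.16, limma adjusted p = 0.262), -0.15 in the 5 libraries of low mitochondrial share and -0.97 without Free-MK1775+NLG919 library 2. With assembled transcripts, 42.2% of the FPKM of the locus, the Cp change was -0.52 (SE 0.18). It then ran from 53.3 to 140 on the Lipo side and from 115 to 158 on the free side, which overlap. Slc7a11, the cystine carrier of the pathway, was below the filter as a named transcript, at 0.0404 to 0.542 on the Lipo side and 0.0975 to 0.622 on the free side. With assembled transcripts, 88.4% of the FPKM of that locus, it ran from 0.506 to 2.55 and from 0.874 to 3.13, a change of -0.19.

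**Figure D4:**
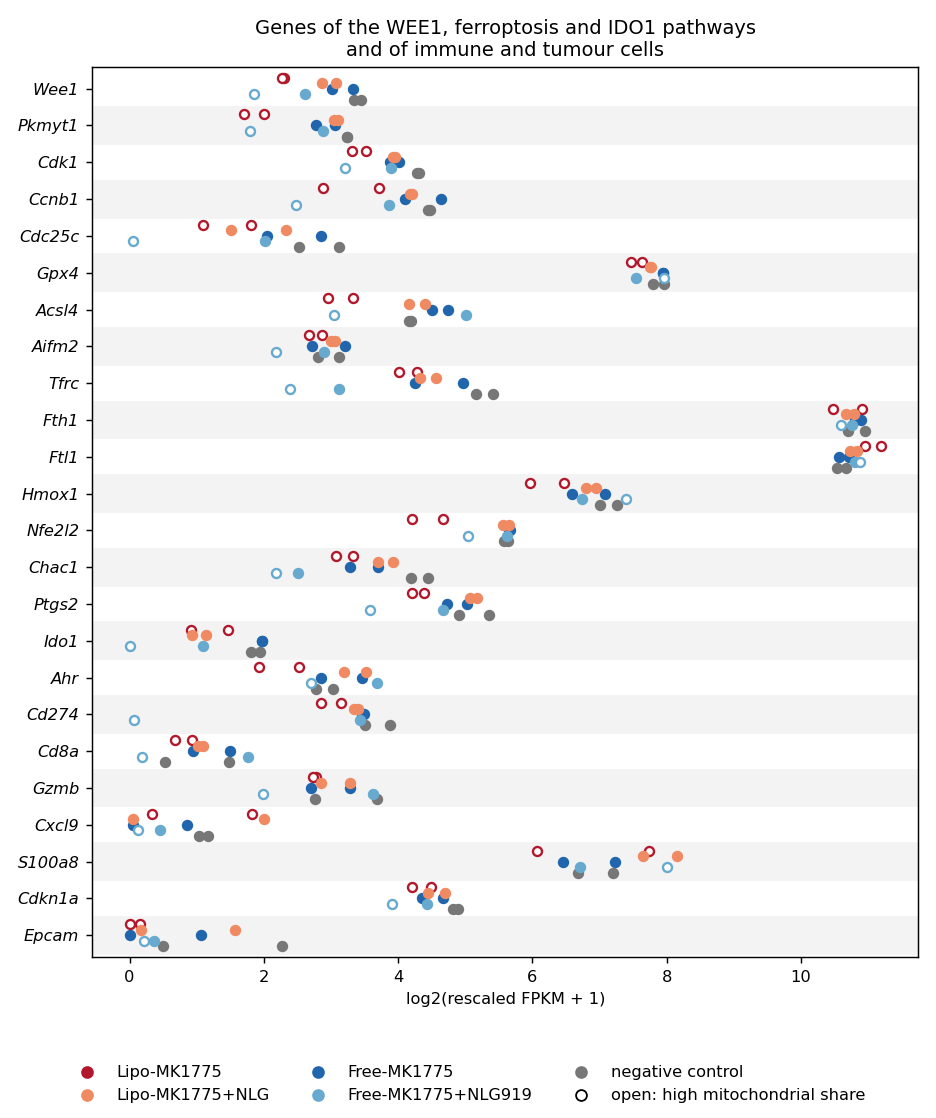
Levels in each library, as log2(rescaled FPKM + 1), of the 24 followed genes that passed the filter; colours give the groups and open symbols the 3 libraries of high mitochondrial share. Lipo and free points overlap in every row, and for Wee1, Pkmyt1, Acsl4 and Nfe2l2 the open symbols lie to the left of the filled ones.

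IDO1 pathway genes were scarce. Ido1, the enzyme that NLG919 is aimed at, had 1.78 and 0.896 in Lipo-MK1775 and 1.19 and 0.900 in Lipo-MK1775+NLG, against 2.93 and 2.95 in Free-MK1775 and 1.14 and 0 in Free-MK1775+NLG919, a change of -0.15 (SE 0.26). The receptor Ahr differed by -0.39 (SE 0.28), and of the 8 measured members of the pathway list 3 were higher and 5 lower (median -0.20, limma 0 called, 0 at an unadjusted p under 0.05). Ido2, a relative of Ido1, was below the filter, with 0.509 and 0.386 in Lipo-MK1775 and 0.928 and 0.503 in Lipo-MK1775+NLG, against 0.00642 and 0.0688 in Free-MK1775 and 0.191 and 0 in Free-MK1775+NLG919. These named values did not overlap, but with the assembled transcripts of the locus the ranges were 0.359 to 0.835 and 0 to 1.21. Tdo2 and Kynu, at no more than 0.212 and 0.344 in any Lipo library and 0.176 and 0.298 in any free library, were likewise below the filter.

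Most immune cell genes that were followed overlapped between the forms. Cd8a of cytotoxic T cells differed by -0.17 (SE 0.36) and their protease Gzmb by 0.01 (SE 0.37). Cd274, which encodes PD-L1, had 6.23 and 7.91 in Lipo-MK1775 and 9.57 and 9.19 in Lipo-MK1775+NLG, against 9.99 and 10.2 in Free-MK1775 and 9.77 and 0.0467 in Free-MK1775+NLG919. The change of 0.58 (SE 0.59) rests on the last of these libraries, without which every free value is above every Lipo value and the change is -0.26. Without Free-MK1775+NLG919 library 1 the Cd274 change was 1.42. Cxcl9, a chemokine for T cells, had 97.4% of its FPKM in assembled transcripts, with which it had 32.6 and 24.5 in Lipo-MK1775 and 28.8 and 29.6 in Lipo-MK1775+NLG, against 59.2 and 35.8 in Free-MK1775 and 37.0 and 2.10 in Free-MK1775+NLG919. The last library again lay far below the others, and the change was 0.40 (SE 0.62). The neutrophil protein S100a8 differed by 0.30 (SE 0.41), and 13 of 19 neutrophil genes were higher (median 0.19, but -0.06 without Lipo-MK1775 library 2). The macrophage protein Cd68 separated the 8 libraries by a small margin, at 71.8 and 84.6 in Lipo-MK1775 and 78.7 and 69.5 in Lipo-MK1775+NLG, against 69.0 and 60.8 in Free-MK1775 and 61.7 and 49.2 in Free-MK1775+NLG919, a change of 0.34. The macrophage and monocyte list as a whole had 11 higher and 8 lower members of 19, with a median of 0.07. Genes of T and NK cells (0.05, 17 members), MHC class I (0.08, 13) and type I interferon (0.15, 20) had small medians. For MHC class II and dendritic cells, 11 of 12 genes were higher and the median was 0.52, but 0.02 in the 5 libraries of low mitochondrial share and 0.06 without Free-MK1775+NLG919 library 2, and their summed level was 152 in Free-MK1775+NLG919 library 2 against 794 to 2019 in the other free libraries and 808 to 1123 on the Lipo side.

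Of 10 measured mast cell genes 9 were higher, and the median was 0.61, while in the 5 libraries of low mitochondrial share all 10 were higher, with a median of 0.87. It was -0.07 without NLG919 and 1.47 with it. limma called 0 of the 10, and 2 had an unadjusted p under 0.05. The protease Mcpt4 had 1.32 and 13.2 in Lipo-MK1775 and 2.81 and 7.70 in Lipo-MK1775+NLG, against 1.18 and 3.77 in Free-MK1775 and 0.435 and 0.881 in Free-MK1775+NLG919, with 11.8 and 5.32 in the negative control. The groups overlapped for Mcpt4 and for the carboxypeptidase Cpa3, and for Cpa3 both control libraries, at 7.52 and 5.12, were above every Lipo library. The median of the list was 0.14 without Lipo-MK1775 library 2 and 1.01 without Lipo-MK1775 library 1.

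Lists with mostly lower members were heat shock (14 of 15, median -0.41), skeletal muscle (15 of 15, -0.47), endothelial (13 of 14, -0.34) and hypoxia and glycolysis (17 of 19, -0.21), against 8205 of 12247 genes lower over all. limma called 0 in each, with 4, 0, 4 and 1 at an unadjusted p under 0.05. The chaperone Hsp90aa1 had 187 and 149 in Lipo-MK1775 and 334 and 389 in Lipo-MK1775+NLG, against 431 and 382 in Free-MK1775 and 398 and 266 in Free-MK1775+NLG919. Without that last library the Hsp90aa1 change was -0.71. The endothelial cadherin Cdh5 had 2.47 and 1.29 in Lipo-MK1775 and 11.1 and 7.36 in Lipo-MK1775+NLG, against 9.52 and 10.1 in Free-MK1775 and 6.58 and 4.28 in Free-MK1775+NLG919. In both the 2 Lipo-MK1775 libraries were the lowest of the 8, and in the 5 libraries of low mitochondrial share the list medians were -0.17 for heat shock, 0.05 for endothelial and 0.01 for hypoxia and glycolysis. Muscle genes had a median of -0.48 there, 0.57 with the mitochondrial share as a covariate and -1.44 without Free-MK1775+NLG919 library 2, and their summed level ran from 12.3 to 88.9 on the Lipo side and from 17.8 to 246 on the free side, and that of skin genes from 1.44 to 330 and from 1.83 to 134, with single libraries far above the rest.

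**Figure D5:**
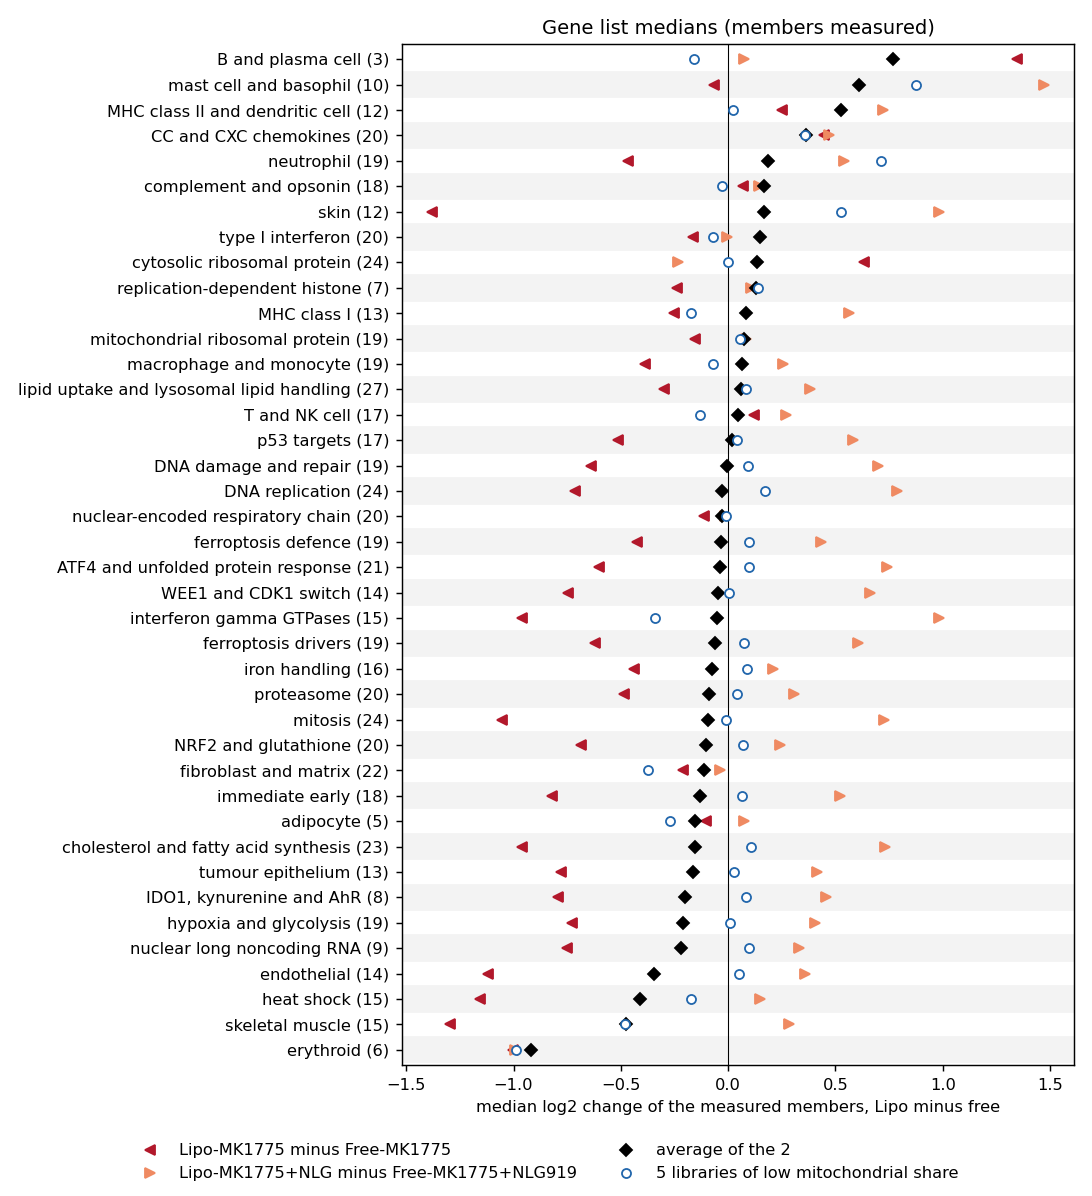
Median log2 change between Lipo and free libraries of the measured members of 40 gene lists (number of members in brackets): left-pointing triangles without NLG919, right-pointing triangles with it, black diamonds their average and open circles the 5 libraries of low mitochondrial share. For most lists the triangles lie on opposite sides of 0, while 5 lists have all 4 symbols on one side: the erythroid, chemokine, MHC class II and dendritic cell, fibroblast and matrix, and respiratory chain lists, the last with symbols close to 0.

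Genes of lipid uptake and lysosomal lipid handling were more often higher than lower, and Fabp5 had the largest change of them. This carrier of fatty acids in macrophages and tumour cells had 34.8 and 39.8 in Lipo-MK1775 and 25.0 and 65.8 in Lipo-MK1775+NLG, against 16.2 and 23.2 in Free-MK1775 and 14.2 and 15.9 in Free-MK1775+NLG919, with 45.9 and 21.6 in the negative control. It separated the 8 libraries with a change of 1.14 (SE 0.33, limma adjusted p = 0.557), 1.17 in the 5 libraries of low mitochondrial share and 1.12 with assembled transcripts. Of the 27 measured genes of lipid uptake and lysosomal lipid handling, 18 were higher and 9 lower, against 4042 of 12247 genes higher over all. Their median was 0.06, with -0.30 without NLG919 and 0.38 with it, and limma called 0, with 4 at an unadjusted p under 0.05. Their summed level ran from 1710 to 2436 on the Lipo side and from 1298 to 1678 on the free side, without overlap. With assembled transcripts these ranges were 1604 to 2329 and 1247 to 1639, which overlap. In cholesterol and fatty acid synthesis 8 were higher and 15 lower (median -0.16); Mvd separated upwards as given above, and Acaca, the first enzyme of fatty acid synthesis, separated downwards with a change of -0.74 that became -0.18 once the assembled transcripts, 86.3% of the FPKM of its locus, were added. The remaining separating members of lists were the complement inhibitor Cd59a (0.35), the ribosomal proteins Rplp0 (0.43) and Mrps28 (0.43) and the glutathione transferase Gsto1 (-0.42). Without Free-MK1775+NLG919 library 2 the changes were 0.44 in Rplp0 and -0.42 in Gsto1.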

How the data were processed

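RNA of 10 libraries, 2 in each of 5 groups, was sequenced. Per the submitters' processing notes the authors used FastQC, Trim Galore, HISAT2 and StringTie on GRCm39, with no versions; the strand setting is not given in the sources used here. The deposited values are FPKM of the authors for each transcript, whose totals include the mitochondrial ones; read depth is unknown, and summed FPKM ran from 328254 to 607192. Of 161762 transcripts, 46 are mitochondrial and 21042 nuclear ones have no gene symbol. FPKM was summed over named transcripts for 52287 genes, mitochondrial rows were removed and each library was rescaled to a sum of 268951. As an alternative, 14859 assembled transcripts were joined to the gene symbol at their locus.

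Genes with at least 1 FPKM in at least 2 libraries were tested with limma 3.58.1 (R 4.3.3) on log2(FPKM + 1), which understates changes of low genes; all 10 libraries shared a fit with group means and a variance trend, two-sided. Same-numbered libraries had deviations correlated at -0.183 to 0.0745, none over 0.1, so no pairing was used. The fit was tested on simulated data.

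Named genes are the 12 largest changes per direction among separating genes that are neither predicted nor pseudogenes, genes called, 28 followed genes, and members of 40 lists that separate or have the 2 smallest p; a selection is printed. The members and lists were chosen with earlier results of these data known. Lists are described without a test. Alternatives changed scaling, filter, pseudocount, transcript summary, model terms and libraries. No columns were left out.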

Additional observations from a re-analysis of the deposited data

Results flagged for a closer look

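Mitochondrial genes, outside the main measurement, held 64.13% and 55.99% of summed FPKM in Lipo-MK1775 libraries 1 and 2 and 47.35% in Free-MK1775+NLG919 library 2, all above the negative control libraries at 4.79% and 3.70%.

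The change between forms differed with and without NLG919 by limma's interaction test at an adjusted p under 0.05 for Cxcl5 (-1.882 log2 units) and Eif4e (-2.347), and in the other direction for Wee1 (1.618), Pkmyt1 (1.804), Ccnb1 (2.101), Tfrc (2.157), Nfe2l2 (1.494), Chac1 (1.754) and Ptgs2 (1.577). Of these 9 calls 0 were left with the mitochondrial share as a covariate or from the 8 libraries alone, and 1, Eif4e, under median-of-ratios scaling. With assembled transcripts added, the Cxcl5 interaction had the opposite sign (3.34, limma adjusted p = 0.0206). That of Eif4e was then 0.36 and not called (limma adjusted p = 0.360). The signs for Cxcl5 and Eif4e above therefore belong to their named transcripts. That of Cxcl5 passed the filter only through the Lipo libraries, where it was higher, so its call is no support. Leaving out any single library other than those of Free-MK1775+NLG919 also left 0. The high mitochondrial share lay with Lipo-MK1775 on one side of this test and with a Free-MK1775+NLG919 library on the other. The slope of the covariate rests mostly on the Free-MK1775+NLG919 pair, so calls lost with it decide nothing.

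Some single libraries lay far from the other 3 of their side. Chance gives about 1 such library in 20 groups. Many genes were looked at on both sides and the number of groups is not given, so the values below cannot be read as an excess. Zranb1 at 0.007237, Ldah at 0.5987 and Col5a1 at 0.5652 rescaled FPKM were lowest in Lipo-MK1775 library 1, and Epcam at 1.981 was highest in Lipo-MK1775+NLG library 2. Por at 4.576, Zbtb22 at 0, Cdk1 at 8.223, Nfe2l2 at 31.92 and Cd274 at 0.04672 were lowest in Free-MK1775+NLG919 library 2. Gpx4 at 184.8 was lowest in Free-MK1775+NLG919 library 1 and Eif4e at 8.843 in Free-MK1775 library 1. Of these 11 values 8 came from the libraries of high mitochondrial share.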

How the results depend on the processing

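Of 904 pairs of a named separating gene and an alternative setting, 902 kept their sign; over all 110 named genes it was 2762 of 2851, and of the 40 lists 5 kept the sign of their median in every setting. The average comparison called 1 gene, but 76 (68 higher, 8 lower) with the mitochondrial share as a covariate, 3 on FPKM as deposited, 3 with no filter and 2 with 1 length per gene. It called 1 to 750 genes with a library left out: 750 (105 higher, 645 lower) without Free-MK1775+NLG919 library 2, 43 (36 higher, 7 lower) without Free-MK1775+NLG919 library 1 and 2 without either Lipo-MK1775+NLG library. Separating genes numbered 274 under median-of-ratios scaling (67 shared with the 174; 133 higher, 141 lower), 269 under quantile normalization (52 shared; 150 higher, 119 lower), 352 with no filter, 2319 without the 3 libraries of high mitochondrial share and 174 to 665 with a library left out; on FPKM as deposited 14 were higher and 124 lower. Fewer libraries separate more easily under random labels, so counts with libraries left out cannot be set beside the 174. The median over all genes was -0.31 on FPKM as deposited, 0.12 with the covariate and -0.01 under either other scaling, against -0.10.

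Without NLG919, limma called 360 genes, but 234 with 1 length per gene, 5978 on FPKM as deposited (82 higher, 5896 lower), 3354 with assembled transcripts (263 higher, 3091 lower), 112 by median of ratios (60 higher, 52 lower), 139 by quantile (83 higher, 56 lower), 11 with the covariate (10 higher, 1 lower), 41 with no filter, 187 with no variance trend, 3 from the 8 libraries alone and 1 to 5764 with a library left out (5764 without either Free-MK1775+NLG919 library). With NLG919 it called 2, but 7 with 1 length per gene, 1 with assembled transcripts, the covariate or the 8 libraries alone, 4 by quantile and 1 to 5548 with a library left out (5548 without Free-MK1775+NLG919 library 1). The interaction called 2769, but 5808 on FPKM as deposited, 5911 with assembled transcripts, 36 by median of ratios, 20 by quantile, 0 with the covariate or no filter, 6 from the 8 libraries alone and 0 to 7684 with a library left out (0 without Lipo-MK1775+NLG library 1, 7684 without Free-MK1775+NLG919 library 1). The cause of these shifts was not tested. The comparison of 5 libraries called 1 gene, and 0 to 2 with a library left out. The mitochondrial share differed by 6.195 to 27.932 points with a library left out, against 17.0.

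With the replicate number as a block, the counts were 1 on average, 1 without NLG919, 1 with it and 47 for the interaction. No shared origin of same-numbered libraries is given, so the samples share only a number. A single length per gene and the scaling without Rn18s, the 18S ribosomal RNA gene, were chosen after seeing the data. Leaving out the 3 libraries of high mitochondrial share gave no value without NLG919 or for the interaction, as Lipo-MK1775 drops out.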
